A study of Homo sapiens with 4 samples.

Results

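The 10 genes described here are the immediate early transcription factor genes JUN, JUNB, JUND, FOS, FOSB, FOSL2, EGR1 and EGR2 and the 2 immediate early response genes IER2 and IER3. They were chosen by symbol and not by a rule on their values, though with earlier results of these data known. They make up 10 of the 60651 gene IDs of the count table. They were measured in CHP134, a human neuroblastoma line long kept in culture that carries extra copies of MYCN, by full-length RNA sequencing of single cells placed on 1 nanowell chip. All libraries were made 24 h after treatment began, and each treatment has 1 library. The control cells received DMSO at 0.04%. Another library came from cells given 13-cis retinoic acid (13cRA, isotretinoin, a retinoid used in neuroblastoma treatment) at 5 µM, and a further one from cells given doxazosin, a blocker of alpha-1 adrenergic receptors, at 10 µM. The combination library received 13cRA at 5 µM together with doxazosin at 10 µM. In DMSO, 13cRA, doxazosin and combination order, 353, 318, 239 and 287 cells were kept. Since each treatment has 1 library, no replicate error or test can be given, and every difference is one between 2 libraries.

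AP-1 is a dimer of basic leucine zipper proteins. JUN proteins pair with each other or with FOS proteins, whereas FOS proteins need a JUN partner to bind DNA, and the dimers recognise short palindromic sites in promoters and enhancers. EGR1 and EGR2 are zinc finger factors that bind GC-rich sites. Growth factors, depolarisation and stress switch these genes on within minutes through MAP kinases, serum response factor (SRF) and CREB, without new protein synthesis, and their short-lived mRNAs then fall again. In neural crest derived cells the same genes respond to neurotrophins and to agents that induce differentiation.

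The stretches just upstream of the start sites of JUN, FOS and EGR1 are shown because these 3 genes carry the main differences below and their start regions hold different elements. They are the 120 bases before the RefSeq start (GRCh38.p14), 5′ to 3′ on the gene's strand, with capitals marking a match to a searched motif. GENCODE 29, used for gene positions below, places the starts of JUN and FOS further upstream, at 58784327 and 75278774. By those starts the JUN stretch lies inside the gene and the FOS stretch runs into it. JUN lies at chr1:58784048-58784167 on the minus strand, and the capitals mark a CRE-like site. FOS lies at chr14:75278708-75278827 on the plus strand, and the capitals mark a TATA box. EGR1 lies at chr5:138465359-138465478 on the plus strand, and the capitals mark 2 CArG boxes, the sequence that SRF binds.
JUN: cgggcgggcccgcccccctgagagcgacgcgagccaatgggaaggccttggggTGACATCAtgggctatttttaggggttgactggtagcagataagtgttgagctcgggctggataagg
FOS: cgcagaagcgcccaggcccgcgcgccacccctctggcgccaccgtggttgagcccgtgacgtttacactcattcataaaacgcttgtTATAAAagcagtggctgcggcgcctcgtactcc
EGR1: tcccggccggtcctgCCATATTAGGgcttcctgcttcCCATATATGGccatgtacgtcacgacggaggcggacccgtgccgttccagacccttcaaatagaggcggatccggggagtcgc

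Motifs were searched on both strands in windows from 250 bases before to 50 bases after each start, and 9 of the 10 genes had such a window, 11 windows in all. The AP-1 site TGANTCA was found in FOSL2 only, and 7.71% of all 35116 promoter windows hold it. The CRE-like site TGACNTCA was found in JUN and JUND, against 7.72% of all windows. EGR1 and 1 window of EGR2 held the CArG box, against 1.29% of all windows. The EGR site GCGNGGGCG was found in EGR1 and EGR2, against 9.43%, and the TATA box TATAAA in JUNB, FOS and FOSB, against 11.5%. IER2 held none of them. No matches in these windows overlapped another motif. A match describes letters and is neither a bound site nor a cause, and a missing match concerns this window only.

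Summed over kept cells, the libraries held 22636509 (13cRA) to 72192743 (combination) counts, and the 13cRA cells were the shallowest, with a median of 59200.5 counts against 122615 to 221558. Cells thinned at random to 34000 counts numbered 328, 249, 235 and 270, and had a median of 3892 detected genes in 13cRA against 4688 to 4771 in the other libraries. Mitochondrially encoded mRNAs summed to 86979 CPM (counts scaled to a library total of 1000000) in 13cRA and to between 55134 and 57181 CPM elsewhere. Of the noradrenergic neuroblast markers, GATA3 (294 to 465 CPM) and HAND2 (73.9 to 85.7 CPM) were present in all libraries, whereas TH and DBH, the enzymes of catecholamine synthesis, were at or below 0.177 CPM. ISL1, a further marker of the list, was at 54.4, 11.9, 49.3 and 26.0 CPM in DMSO, 13cRA, doxazosin and combination order, at least 2-fold lower in both libraries with 13cRA than in DMSO under all 3 scalings. The markers of other cell types were low. In DMSO, 13cRA, doxazosin and combination order they summed to 0.789, 10.3, 1.54 and 2.94 CPM for 6 Schwann cell genes, 13.4, 24.9, 12.5 and 8.99 CPM for 7 fibroblast genes, and 6.31, 23.9, 5.91 and 14.4 CPM for 6 endothelial genes, of which CLDN5 made up 19.7 CPM in 13cRA. The 6 leukocyte genes summed to between 0.36 and 1.13 CPM, with TYROBP at 0 in 3 libraries, and the 5 epithelial genes to between 1.14 and 2.16 CPM. The 13cRA library thus stood apart in marker sums, depth and mitochondrial counts, whereas the combination, which also received 13cRA, had the deepest cells and the lowest mitochondrial and fibroblast sums, but Schwann cell and endothelial sums above DMSO. The part of these values in the results below was not tested except where a value is given.

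JUN had the largest difference between DMSO and 13cRA of the 10 genes on the log2 scale used here. JUN encodes the AP-1 subunit that can act as a homodimer and binds together with FOS proteins; the gene is a single exon at chromosome 1, 58780788 to 58784327, on the minus strand of GRCh38. Its level was 6.27 CPM in DMSO (95% Poisson interval 5.58 to 7.02), 44.4 CPM in 13cRA (41.7 to 47.2), 8.04 CPM in doxazosin (7.24 to 8.90) and 18.5 CPM in the combination (17.5 to 19.5). Both libraries that received 13cRA were thus above both that did not, and the combination lay between. The difference is 2.64 for 13cRA and 1.42 for the combination, each against DMSO, as log2((CPM + 1)/(CPM + 1)), and the combination was 1.22 below 13cRA on that scale. The libraries lack molecular identifiers, so reads amplified from 1 molecule count repeatedly and these intervals cover counting error only.

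The share of cells with a JUN read was likewise higher in both libraries with 13cRA. Among thinned cells, 12.2% had at least 1 JUN read in DMSO (exact 95% binomial interval 8.86 to 16.2), 29.3% in 13cRA (23.7 to 35.4), 8.94% in doxazosin (5.62 to 13.3) and 21.1% in the combination (16.4 to 26.5). The intervals of 13cRA and the combination were apart from those of DMSO and doxazosin, and overlapped each other. Without thinning the shares were 22.1%, 32.7%, 22.2% and 41.1% in the same order, in cells of unequal depth. JUN-positive cells also held more reads in 13cRA, with a mean of 4.25 thinned reads against 1.5 in DMSO, and cells with at least 3 JUN reads made up 14.9% against 1.83%. Thinned JUN-positive 13cRA cells had a median of 3684 genes and JUN-negative ones 3943. Among cells of like complexity, with 4000 to 4600 genes after thinning, 22.8% of 92 13cRA cells and 9.43% of 106 DMSO cells had a JUN read, with overlapping intervals (14.7 to 32.8 and 4.62 to 16.7). The combination, at 22.4% of 76 such cells (13.6 to 33.4), overlapped DMSO there as well.

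A few cells supplied much of the JUN signal. In 13cRA 1 cell held 18.1% of all JUN reads and the 4 highest cells held 37.0%; in doxazosin 1 cell held 38.5%. Leaving out the 1% of cells with the highest JUN level in each library gave 2.26 for 13cRA against DMSO and 1.20 for the combination against DMSO (log2). For doxazosin against DMSO the difference changed from 0.31 to −0.19. In cells with 34000 to 120000 counts, JUN differed by −0.01 between the combination and 13cRA, so the lower combination level was not seen there. Median depth was 171793 counts in doxazosin and 221558 in the combination, so here and below this window holds a minority of their cells. No interval was computed for it.

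**Figure D1:**
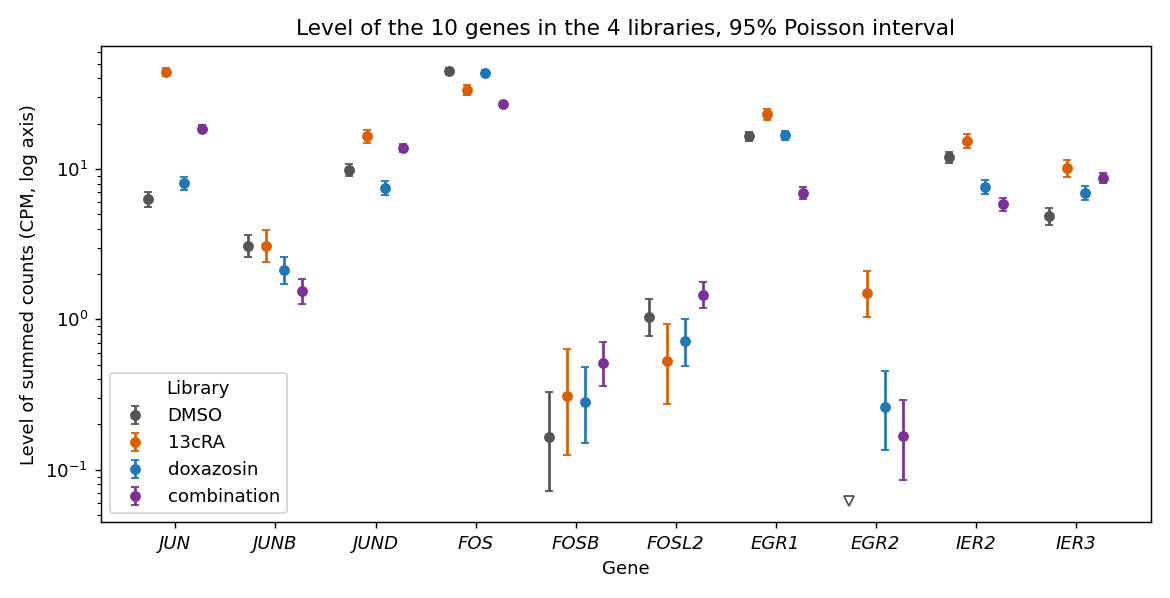
Level of each gene in CPM of the counts summed over kept cells, on a log axis, in the DMSO, 13cRA, doxazosin and combination libraries. Bars are 95% Poisson intervals and the open triangle marks the limit of 3 counts for EGR2 in DMSO, which had no read. JUN stands at 44.4 CPM in 13cRA and 6.27 CPM in DMSO, and EGR1 is lowest in the combination at 6.91 CPM.

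JUND and JUNB, the other JUN proteins, differed less than JUN. JUND, which is made in most resting cells and is the least inducible of the 3, had 9.80, 16.5, 7.47 and 13.8 CPM in DMSO, 13cRA, doxazosin and combination order. It was higher in 13cRA than in DMSO by 0.69 (log2), short of 2-fold, and its thinned shares of 22.6%, 30.9%, 19.6% and 21.9% had intervals that overlapped in all 5 comparisons. That JUND difference was −0.41 among cells with 4000 to 4600 genes, where 22.8% of 13cRA and 31.1% of DMSO cells had a read. JUNB, which often restrains JUN activity, was at 3.09 CPM in DMSO, 3.09 CPM in 13cRA, 2.12 CPM in doxazosin and 1.54 CPM in the combination. The DMSO and 13cRA intervals of JUNB coincided almost fully (2.62 to 3.63 and 2.41 to 3.91), and the combination interval (1.26 to 1.85) lay below both. JUNB falls under the filter of a mean of 5 CPM, and its share of thinned cells was highest in DMSO at 7.62% and lowest in the combination at 2.96%. Where reads of JUNB and of the overlapping gene HOOK2 meet, the counting may not separate them, since its use of strand is not given in the sources used here.

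FOS showed a smaller difference in level than in the share of cells. FOS, the classic partner of JUN in AP-1, was at 45.1 CPM in DMSO (43.2 to 47.0), 33.4 CPM in 13cRA (31.1 to 35.9), 43.3 CPM in doxazosin (41.5 to 45.3) and 26.9 CPM in the combination (25.7 to 28.1). DMSO and doxazosin overlapped, and 13cRA and the combination were lower, by 0.42 and 0.73 on the log2 scale against DMSO. The share of thinned cells with a FOS read was 34.5% in DMSO (29.3 to 39.9), 14.5% in 13cRA (10.3 to 19.4), 31.5% in doxazosin (25.6 to 37.8) and 20.4% in the combination (15.7 to 25.7). The shares in 13cRA and the combination lay below that in DMSO with intervals apart, and only in 13cRA was the interval also apart from doxazosin. How many of all genes had share intervals apart was not computed, here or for the other genes described. Thinned 13cRA cells had fewer detected genes in general, with a median of 3892 against 4688 in DMSO.

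Fewer thinned cells had a FOS read in 13cRA than in DMSO, and a few of them held many reads. FOS-positive thinned cells held a mean of 7.33 reads in 13cRA, and 4.5, 4.74 and 4.0 reads in the DMSO, doxazosin and combination libraries, while the medians were 3.5, 3, 3 and 3. The 4 cells with most FOS reads held 44.1% of them in 13cRA and 16.7% in DMSO. In doxazosin 1 cell held 25.6% of the FOS reads. Without the top 1% of cells, the FOS difference of 13cRA against DMSO was −0.91 in place of −0.42. In cells with 34000 to 120000 counts it was −0.04 (34.3 CPM in DMSO and 33.4 CPM in 13cRA). The likeness of doxazosin and DMSO in FOS level also depended on the setting. Without the top 1% of cells doxazosin was at 30.4 CPM and DMSO at 39.1 CPM. In cells with 34000 to 120000 counts doxazosin was the higher, at 44.8 CPM. Cells with a FOS read in 13cRA had a median of 15.7% mitochondrial counts and those without 13.1%, whereas both medians were 10.6% in DMSO. In cells with 4000 to 4600 genes the FOS shares were 17.4% in 13cRA and 24.5% in DMSO, with overlapping intervals (10.3 to 26.7 and 16.7 to 33.8), so at like complexity the difference in share was not resolved with these cell numbers.

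**Figure D2:**
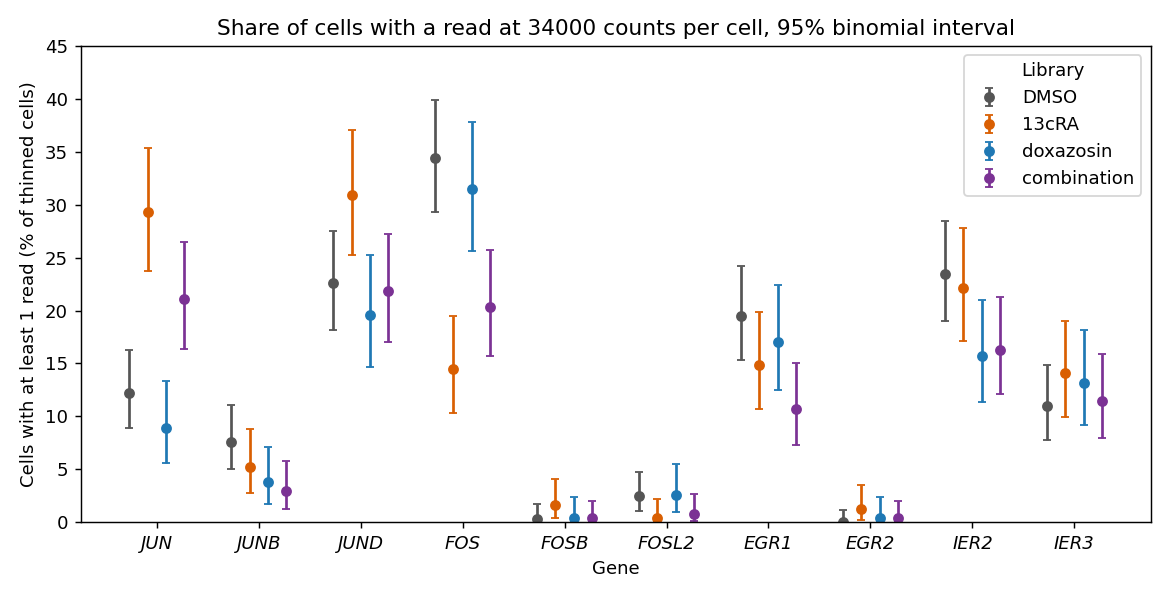
Share of cells with at least 1 read of each gene after thinning to 34000 counts per cell, in percent, for the 4 libraries, with exact 95% binomial intervals that cover the sampling of cells only. JUN is found in 29.3% of 13cRA and 12.2% of DMSO cells, and FOS in 14.5% and 34.5%.

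FOSB and FOSL2, the other FOS proteins measured here, were near the limit of detection. FOSB had 8, 7, 13 and 37 reads (0.166, 0.309, 0.282 and 0.513 CPM), and in DMSO all 8 came from 1 cell. FOSL2 had 1.04, 0.530, 0.715 and 1.45 CPM, of which 68.6% of the combination reads lay in 1 cell. At most 1.61% of thinned cells had a FOSB read and at most 2.55% a FOSL2 read in any library. Neither gene allows a statement about treatment at this depth.

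EGR1 was lowest in the combination. EGR1, a zinc finger factor induced by ERK signalling, was at 16.5 CPM in DMSO (15.4 to 17.7), 23.1 CPM in 13cRA (21.2 to 25.2), 16.8 CPM in doxazosin (15.6 to 18.0) and 6.91 CPM in the combination (6.32 to 7.55). DMSO and doxazosin overlapped, 13cRA lay above and the combination below all 3. Against DMSO, 13cRA and doxazosin the combination was lower by 1.15, 1.61 and 1.17 (log2). EGR1 was also in the smallest share of thinned cells there, 10.7% (7.31 to 15.1), against 19.5% in DMSO (15.4 to 24.2), 14.9% in 13cRA (10.7 to 19.9) and 17% in doxazosin (12.4 to 22.4). Of these, only the DMSO interval was apart from that of the combination. Among cells with 4000 to 4600 genes the EGR1 shares were 10.5% in the combination (4.66 to 19.7) and 21.7% in DMSO (14.3 to 30.8), with overlapping intervals. The higher EGR1 level in 13cRA than in DMSO did not hold in every setting, at 0.46 in summed CPM, 0.07 as the mean of per-cell CPM, 0.14 by TMM scaling, and −1.21 when cells had 4000 to 4600 genes. Its share of cells was not higher in 13cRA, and the intervals overlapped. The lower EGR1 level in the combination than in DMSO kept its direction in all alternatives, from −2.12 to −0.86.

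EGR2, a relative of EGR1 known for its part in hindbrain and Schwann cell development, was rare. It had no read in DMSO, which allows up to 0.0623 CPM by a limit of 3 counts, and 34, 12 and 12 reads in 13cRA, doxazosin and the combination. Of the 34 reads in 13cRA, 79.4% came from 1 of the 5 cells that held any. The thinned share of EGR2 was 1.20% in 13cRA and 0 of 328 cells in DMSO, which allows a share of up to 0.915% by the same limit of 3.

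**Figure D3:**
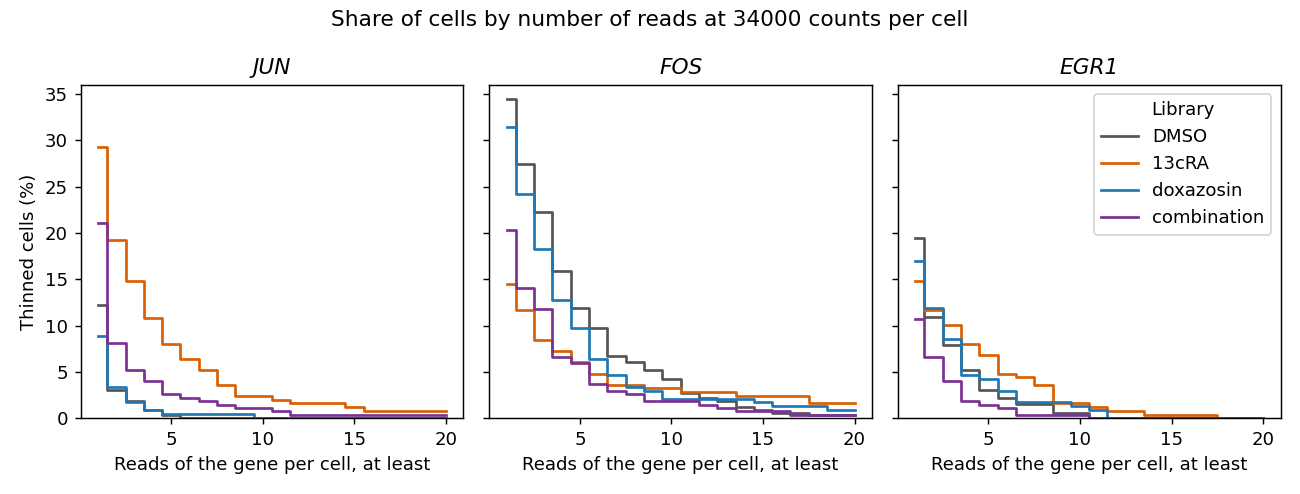
Percent of thinned cells (y axis) with at least the number of reads of JUN, FOS or EGR1 on the x axis, 1 line per library. At 3 reads the JUN lines stand at 14.9% in 13cRA and 1.83% in DMSO and the FOS lines at 8.43% and 22.3%, and the 13cRA line of FOS is above that of DMSO at 20 reads.

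IER2 and IER3 parted from each other in the doxazosin libraries. IER2, a nuclear protein of the immediate early response, was at 11.9 CPM in DMSO (11 to 13), 15.4 CPM in 13cRA (13.8 to 17.1), 7.62 CPM in doxazosin (6.85 to 8.46) and 5.83 CPM in the combination (5.29 to 6.42). The 2 libraries with doxazosin were the lowest, and the combination was 1.26 below 13cRA and 0.92 below DMSO (log2). In cells with 34000 to 120000 counts the combination was 0.69 below 13cRA and 0.16 below DMSO, and doxazosin alone was the lowest (4.13 CPM against 10.5 CPM in the combination). That window again held a minority of the doxazosin and combination cells, without intervals. The thinned shares of IER2, at 23.5%, 22.1%, 15.7% and 16.3% in DMSO, 13cRA, doxazosin and combination order, had overlapping intervals in all 5 comparisons. IER3, an inducible protein that acts on cell survival, was at 4.84, 10.1, 6.93 and 8.70 CPM in that order. All 3 treated libraries had an IER3 interval above that of DMSO (4.24 to 5.50), and the difference for 13cRA was 0.92, just short of 2-fold. For doxazosin it was 0.44, and −0.02 in cells with 34000 to 120000 counts. The cell with most IER3 reads held 24.5% of them in the combination, 18.1% in doxazosin and 5.15% in DMSO. Without the top 1% of cells IER3 was at 4.41, 8.53, 5.40 and 6.40 CPM in the same order of libraries. Among cells with 4000 to 4600 genes IER3 was at 4.44, 8.31, 10.9 and 4.64 CPM, with the combination close to DMSO. Its shares of thinned cells were 11% to 14.1%, again with overlapping intervals. IER3 lies beside IER3-AS1, and reads of that antisense gene may be counted with it.

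Per kilobase of exon (GENCODE 29 lengths, at hand and not known to be those behind the counts), the order of the genes also differed between libraries. In DMSO, FOS led with 13.9 CPM per kilobase, before EGR1 at 5.27 and JUND at 5.26, which overlapped, then IER2 at 3.89 and IER3 at 3.57, which also overlapped, and JUN at 1.77 and JUNB at 1.70, which overlapped as well. In 13cRA, JUN led with 12.5 CPM per kilobase, apart from FOS at 10.3 in summed CPM, and JUND (8.84), IER3 (7.43) and EGR1 (7.36) followed with each overlapping the next. As the mean of per-cell CPM, however, JUN was at 9.06 and FOS at 9.96 CPM per kilobase, and FOS was also above JUN in cells with 34000 to 120000 counts (10.3 and 8.49) and with 4000 to 4600 genes (6.22 and 4.88). In doxazosin the order opened with FOS at 13.4 CPM per kilobase, with EGR1 (5.35) and IER3 (5.11) overlapping. In the combination FOS (8.29), JUND (7.42), IER3 (6.42) and JUN (5.22) came first in summed CPM, each apart from the next. EGR1 was at 2.20 CPM per kilobase there. That order did not hold in combination cells with 34000 to 120000 counts, where JUN was at 29.9 CPM and FOS at 9.86 CPM before division by length. FOSL2, FOSB and EGR2 took the last 3 places in every library.

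Counted together, 6 of the 10 genes passed the filter of a mean of 5 CPM over the 4 libraries: JUN, JUND, FOS, EGR1, IER2 and IER3. A gene is counted when its level differed at least 2-fold (log2 of 1). For 13cRA against DMSO, 1 of the 6 was higher (JUN) and none lower, beside 5.44% of all 9573 genes higher and 3.29% lower. The median of the 6 was 0.58 beside −0.02 over all genes. For doxazosin against DMSO none of the 6 was counted in either direction, beside 0.669% higher and 0.481% lower, and the median was −0.02, as over all genes. For the combination against DMSO, JUN was higher and EGR1 lower, beside 2.71% and 1.48% of all genes. For the combination against 13cRA none was higher and 3 were lower (JUN, EGR1 and IER2), beside 2.74% and 4% of all genes, and the median was −0.76. For the combination against doxazosin, JUN was higher and EGR1 lower, beside 2.8% and 1.64% of all genes. These comparisons share libraries and are not independent of each other. With TMM factors the median of all genes moved to −0.34 for 13cRA against DMSO and to 0.29 for the combination against 13cRA. The genes counted were then 2.98% higher and 9.68% lower for the former, and 8.13% higher and 1.56% lower for the latter. DESeq2 size factors gave 3.22% and 8.48%, and 6.50% and 1.90%. Relative to the median of all genes with TMM factors, JUN stood at 2.67 and −1.21, FOS at −0.40 and −0.29, and EGR1 at 0.48 and −1.60. Subtracting the median cancels a scaling factor almost fully, so these values cannot show whether a difference holds under another scaling. Without the subtraction, JUN in the combination against 13cRA was −0.92 by TMM and −0.98 by DESeq2 scaling, short of 2-fold. EGR1 stayed past 2-fold there, at −1.31 and −1.38, and IER2 lay at −0.97 and −1.03. JUND and IER3, slightly below 13cRA in the combination by CPM, were slightly above it with TMM factors (0.06 and 0.09).

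Most cells with a read of JUN or FOS had reads of only 1 of them. Among thinned DMSO cells, 6.71% had reads of JUN but not FOS, 29% of FOS but not JUN, and 5.49% of both. In 13cRA the classes held 22.1%, 7.23% and 7.23%, in doxazosin 5.53%, 28.1% and 3.40%, and in the combination 16.7%, 15.9% and 4.44%. The share of cells with neither was 58.8% to 63.5% in all libraries, with overlapping intervals. The 13cRA library thus had more cells with JUN alone and fewer with FOS alone than DMSO, with intervals apart for both classes, and the combination differed from DMSO in the same way. The intervals of the share with reads of both genes overlapped between all libraries. These classes follow largely from the single shares of JUN and FOS given above. No expected share of cells with both was computed, so they do not show that the genes exclude each other.

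Co-detection was measured among the 7 genes other than FOSB, FOSL2 and EGR2. For 11 of the 21 pairs, 1 gene was read in a larger share of cells with the other than of cells without it in all 4 libraries. Without thinning this held for 19 pairs, so the count depends on depth. The same count over pairs of other genes was not computed, so it is not shown to be particular to these genes. Of the pairs given here, FOS and EGR1 had intervals apart in the most libraries, DMSO, 13cRA and doxazosin. EGR1 was read in 32.7% of DMSO cells with FOS and in 12.6% of those without (24.2 to 42.2 and 8.44 to 17.7). The same shares were 41.7% and 10.3% in 13cRA (25.5 to 59.2 and 6.59 to 15.2) and 33.8% and 9.32% in doxazosin (23.2 to 45.7 and 5.31 to 14.9). In the combination they were 18.2% and 8.84% with overlapping intervals (9.08 to 30.9 and 5.40 to 13.5). Across cells of a library the correlation of thinned FOS and EGR1 reads was 0.27, 0.36, 0.39 and 0.19 in DMSO, 13cRA, doxazosin and combination order (Pearson r of log2(reads + 1)). This is a weak relation in sparse counts that share library and chip. The highest r of any pair was 0.36 in DMSO and 0.30 in the combination, so another pair was more closely related there.

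**Figure D4:**
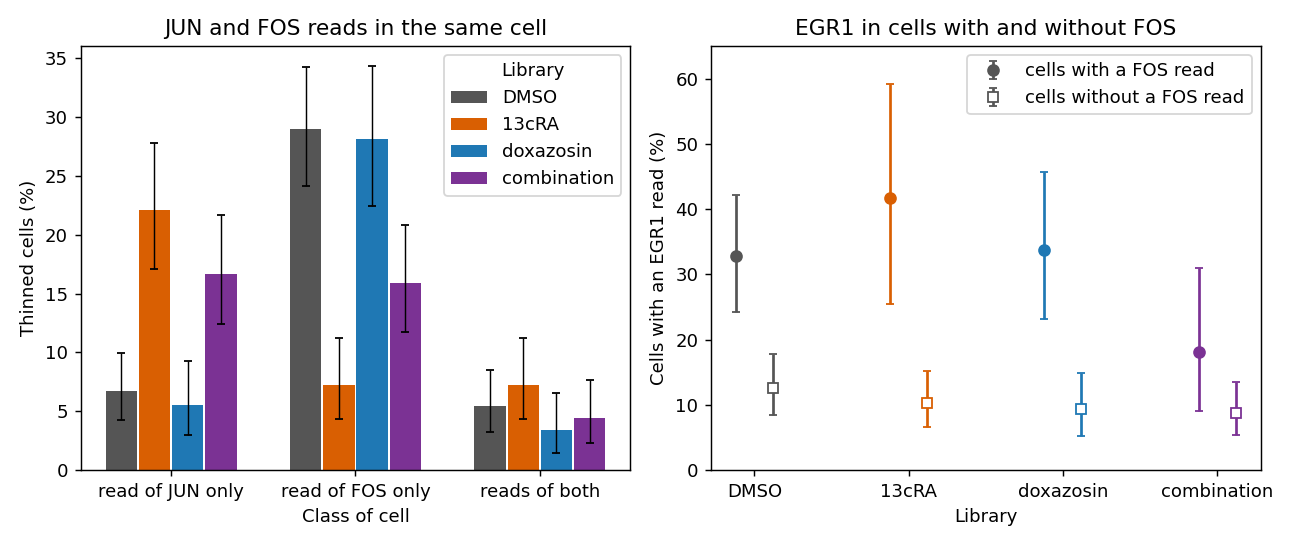
Left: percent of thinned cells with a read of JUN only, of FOS only or of both genes in each library. Right: percent of cells with an EGR1 read among cells with (filled circles) and without (open squares) a FOS read. Bars are exact 95% binomial intervals; JUN-only cells make up 22.1% in 13cRA and 6.71% in DMSO, and EGR1 is more frequent in FOS-positive cells of DMSO, 13cRA and doxazosin.

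Other pairs were apart in 1 or 2 of the libraries. EGR1 and IER2 went together in DMSO, where IER2 was read in 45.3% of cells with EGR1 and 18.2% of those without. EGR1 and IER3 did so in 13cRA (32.4% and 10.8%) and in doxazosin (32.5% and 9.23%). JUN was read in 50.0% of FOS-positive and 25.8% of FOS-negative 13cRA cells, with intervals apart (32.9 to 67.1 and 20.1 to 32.2). Taken the other way, FOS was read in 24.7% of JUN-positive and 10.2% of JUN-negative 13cRA cells with overlapping intervals (15.3 to 36.1 and 6.17 to 15.7). In DMSO, JUN was read in 15.9% of FOS-positive and 10.2% of FOS-negative cells, again with overlapping intervals. Whether a pair differs between libraries was not tested. In the combination no pair had intervals apart in thinned cells. That count took each pair in 1 direction only, the gene named later in the opening list among cells with and without the earlier one. Of thinned cells, 30.8%, 29.7%, 34.9% and 36.7% had no read of any of the 10 genes, and the most that 1 cell held was 7, in 13cRA. Cells with reads of at least 3 of the genes made up 15.5%, 16.5% and 14.5% of the DMSO, 13cRA and doxazosin libraries and 8.52% of the combination, where the interval (5.48 to 12.5) overlapped that of DMSO (11.8 to 19.9).

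Genes that varied from cell to cell most like the summed reads of JUN, JUNB, FOS, EGR1 and IER2 were ranked by their lowest correlation over the 4 libraries, among 8086 candidates. Among the first 5 were CTCFL, RHOB, ANXA2 and MT-RNR1, with a lowest r of 0.13, 0.11, 0.10 and 0.099. Values this weak in sparse counts are a description and no finding.

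Among 13 other AP-1 and basic leucine zipper genes, 5 passed the filter, and 2 were at least 2-fold higher in 13cRA than in DMSO, none lower, also with TMM or DESeq2 scaling. ATF3, a stress-induced repressor that pairs with JUN, was at 13.2, 49.0, 19.5 and 15.8 CPM in DMSO, 13cRA, doxazosin and combination order, high in 13cRA alone. FOSL1, the remaining FOS protein, was at most 0.402 CPM. Of the 5 EGR relatives and corepressors, 2 passed and neither differed 2-fold in CPM in any comparison. NAB1, which binds EGR1 and represses it, was at 19.1, 9.94, 19.2 and 12.6 CPM and was counted as lower in 13cRA than in DMSO under TMM and DESeq2 scaling, and NAB2 at 10.9, 9.41, 4.96 and 7.16 CPM. EGR3 was at most 0.368 CPM.

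Of 32 other immediate early genes, 12 passed the filter, 5 of them at least 2-fold higher in 13cRA than in DMSO and none lower, with a median of 0.66. With TMM or DESeq2 scaling 3 were higher (SGK1, IER5 and DUSP2), with medians of 0.34 and 0.38. Over all genes 5.44% were higher by CPM, 2.98% by TMM and 3.22% by DESeq2 scaling. SGK1, a serum and glucocorticoid induced kinase, was at 1.52, 25.2, 1.88 and 14.1 CPM. IER5 was at 9.18, 29.8, 7.23 and 15.9 CPM. DUSP2, a phosphatase of MAP kinases, was at 8.41, 27.6, 8.79 and 11.6 CPM, and BTG1, an antiproliferative gene, at 33.6, 75.1, 43.4 and 48.7 CPM. TRIB1, named after its values were seen, was the fifth, at 8.08 CPM in DMSO and 17.7 CPM in 13cRA. Only SGK1 was also 2-fold higher in the combination than in DMSO, and none of the 12 was counted for doxazosin against DMSO. DUSP1, which switches MAP kinases off, had 13.8, 24.7, 18.0 and 15.6 CPM, and NR4A1, an immediate early nuclear receptor, at most 1.41 CPM.

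Upstream of these genes, 1 of 11 measured SRF, ternary complex and CREB factors and 2 of 16 MAP kinase genes were at least 2-fold higher in 13cRA than in DMSO, and none was lower. These calls depended on scaling, since with TMM factors none (0) was higher and 1 of each list was lower (ATF1 among the former), and with DESeq2 size factors only MRTFA was higher. The shares over all genes are those given above. MRTFA, a coactivator of SRF and the gene of the first list counted by CPM, was at 5.44 CPM in DMSO and 14.8 CPM in 13cRA. SRF itself had 43.5, 66.8, 40.4 and 40.0 CPM and its partner ELK1 8.01, 9.85, 8.60 and 6.62 CPM. MAPK3 (ERK1) was at 17.1, 42.6, 23.0 and 36.3 CPM, high in both libraries with 13cRA. RPS6KA5, a kinase that phosphorylates CREB and histone H3, was at 4.15 CPM in DMSO and 9.37 CPM in 13cRA. Among 6 measured ERK feedback and output genes, 1 was higher than DMSO in 13cRA and in the combination under all 3 scalings. This was DUSP6, the phosphatase of ERK, at 1.85, 14.9, 2.27 and 20.8 CPM, read in 3.05%, 7.63%, 3.40% and 10.0% of thinned cells. SPRY2, another ERK feedback gene, was at 3.63, 1.46, 4.29 and 2.48 CPM.

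**Figure D5:**
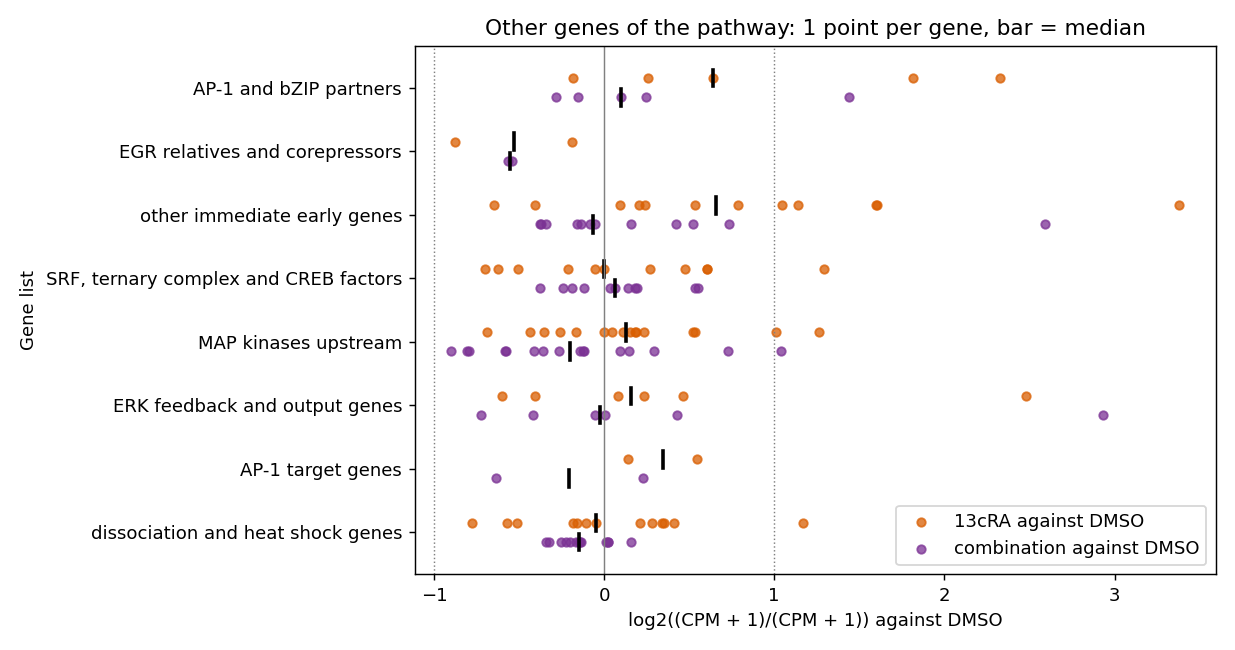
Differences from DMSO, as log2((CPM + 1)/(CPM + 1)), of the genes of 8 lists that passed the filter, 1 point per gene, for 13cRA and for the combination. Black bars are list medians and dotted lines mark 2-fold. The points farthest to the right are SGK1 in 13cRA and DUSP6 in the combination.

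Of 13 AP-1 target genes, only PLAUR and VIM passed the filter, and neither differed 2-fold between 13cRA and DMSO. PLAUR, the urokinase receptor, was at 9.11, 13.8, 21.5 and 10.8 CPM and was the 1 target counted as higher in doxazosin. Genes that mark tissue dissociation and heat shock were measured because immediate early genes can be induced during handling. Of 13 that passed, 1 (HSPA1B, at 9.99 CPM in DMSO and 23.7 CPM in 13cRA) was higher in 13cRA and none lower, with a median of −0.05, whereas TMM and DESeq2 scaling left none higher and 1 lower (UBB, named after its values were seen). HSPA1B shares nearly identical sequence with HSPA1A, so its count is uncertain. A part of handling in the levels of the 10 genes was not tested.

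Cells left out by the filter, most of them for a high mitochondrial share, did not all lack these genes. EGR1 was read in 8 of 20 such DMSO cells and JUN in 12 of 37 such 13cRA cells. In the combination, 383 FOS reads lay in 3 of 20 left-out cells, and with no cell filter FOS differed by 0.02 between the combination and 13cRA in place of −0.31 (log2).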

How the data were processed

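Single cells of 4 treatments, 1 library each, were measured on 1 chip. The authors deposited 1 table of raw counts (reads per gene, without molecular identifiers) for 1287 cells. Per the submitters' processing notes, the tools were Seurat 4.3.0, STAR 2.7.8a, featureCounts, fastp 0.23.3 and bcl2fastq; GRCh37 and GRCh38.p13 are both listed without saying which was used where. Annotation, strand setting and treatment of shared reads: not given in the sources used here. Cell names carry no barcodes, and no 2 cells had identical counts. Wells were picked by imaging, so no doublet caller was run, and 5 cells exceeded 9000 genes.

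Cells with at least 500 genes and at most 25% mitochondrial counts were kept (1197). Their counts were summed per library and scaled to CPM; differences are log2((CPM + 1)/(CPM + 1)), counted from 2-fold among 9573 genes with a mean of at least 5 CPM. Shares and co-detection used cells thinned to 34000 counts, leaving out 25 DMSO, 69 13cRA, 4 doxazosin and 17 combination cells. Intervals are exact Poisson or Clopper-Pearson, at 95%. No p-value was computed. The fold calculation was tested on simulated counts.

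The genes, lists and alternatives were chosen with earlier results of these data known. All 10 genes are named; of each other list, up to 4 genes that passed the filter with the largest 13cRA difference from DMSO, pathway-defining genes, and the 5 genes most like the members. Some genes that these rules pick are not reported here. The window of 4000 to 4600 genes and CPM without mitochondrially encoded genes were chosen after seeing the data. Python 3.11.15, numpy 2.4.6, pandas 2.3.3, scipy 1.17.1, R 4.3.3, edgeR 4.0.16 (TMM) and DESeq2 1.42.0 (size factors) were used. Promoters are from RefSeq (GRCh38.p14); positions are from GENCODE 29.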

Additional observations from a re-analysis of the deposited data

How the results depend on the processing

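No paired analysis was possible because each treatment has 1 library. JUN stayed above DMSO in 13cRA in all 11 alternatives (log2 1.48 to 2.71) and in the combination (0.76 to 2.10). The share of all genes past 2-fold was computed for CPM, TMM and DESeq2 scaling only. Counts of genes under the other settings have no such share beside them, so they show only how the count moved. Of 6 genes, 2 (JUN and IER3) were at least 2-fold higher in 13cRA than in DMSO with no cell filter and in cells with 34000 to 120000 counts. With no filter on low genes it was 2 of all 10 (JUN and EGR2). In cells with 34000 to 120000 counts 2 were higher and 2 lower in the combination than in DMSO, 3 higher and 2 lower than in doxazosin, and 1 was lower in doxazosin than in DMSO. With a pseudocount of 5 CPM none (0) was lower in the combination than in DMSO, and 0 were higher and 0 lower than in doxazosin; thinned sums also gave 0 lower against DMSO and 0 against doxazosin, and no cell filter gave 0 higher against doxazosin. With TMM factors 1 (EGR1) was lower in the combination than in 13cRA. Among cells with 4000 to 4600 genes, a window of 35 doxazosin to 106 DMSO cells, 1 was higher in doxazosin, 2 were lower in 13cRA (FOS and EGR1) and 0 higher and 2 lower in the combination, each against DMSO, 0 lower in the combination than in 13cRA and 3 lower than in doxazosin. In that window 0 shares in 13cRA were above DMSO, and JUNB in place of FOS was below. Without thinning, where 13cRA cells were the shallowest, 3 shares in 13cRA were below DMSO (FOS, EGR1 and IER2). In unthinned cells 19 of 21 pairs were found together more often in all libraries. The unthinned JUND share was −6.39 percentage points from DMSO in 13cRA in place of 8.36, and that in the window was −8.31. The cause of these changes was not tested. Of 550 alternative differences of single genes, 322 lay inside the counting interval of the main ratio. That interval is computed without a pseudocount, whereas the differences include one, so a main value can itself lie outside. For EGR2 in 13cRA against DMSO the main difference was 1.32 and the interval began at 4.21. The count of 322 is therefore no measure of agreement within counting error. FOSB, FOSL2 and EGR2 are limited by depth.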
